A study of Mus musculus with 18 samples.

Results

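The genes described here encode the nuclear part of the mitochondrial respiratory chain and of ATP synthase. They were taken from the gene table by name, as the Nduf a, b, c, s and v series, Sdh a to d, Uqcr, Cox 4 to 8 and Atp5, without the Ndufaf assembly factors and pseudogenes, and with at least 180 counts over all 18 libraries. Of 34745 genes in the table, 89 names matched and 85 reached that sum, and all 85 were among the 14241 genes with enough counts to be tested. The rule gave 38 genes of complex I, 8 of complex II, 8 of complex III, 14 of complex IV and 17 of complex V. The names also brought in 6 genes that are not subunits, namely the complex II assembly factors Sdhaf1 to Sdhaf4 and the pair Atp5s and Atp5sl. Ndufa4 and its relative Ndufa4l2 were counted with complex I by name, although Ndufa4 is now placed in complex IV. The names that fell below the sum were Cox4i2 with 178 counts and Cox7b2, Cox8b and Cox8c with 0, while the lowest genes kept were Cox6a2 with 208 and Ndufb4 with 323.

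RNA-seq was performed on bone marrow-derived macrophages (BMDMs) from Zmat1 global knockout mice and wild-type littermates. All cultures received macrophage colony-stimulating factor (M-CSF), for 3 days before the start point per the labels, and were collected without RANKL, the cytokine that drives macrophages to become osteoclasts (day 0), or after 1 or 3 days with it. Each of the 6 groups of label (WT or KO) and day held 3 libraries, 18 in all, and nothing in the labels says which libraries came from separate mice, so p-values measure the spread between libraries. Of the WT libraries of day 1, 2 have the number 1 in their titles and 1 has the number 2, and whether the 2 came from separate cultures is not stated. Donor mice were 4 to 8 weeks old in the culture methods, and M-CSF was given there for 4 days. Totals were 13789775 to 17559958 counts per library. Zmat1 counts did not separate the genotypes, at 32 to 91 in the 9 WT and 49 to 99 in the 9 KO libraries, so the groups are called libraries labelled WT or KO.

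The respiratory chain passes electrons from NADH (complex I) or succinate (complex II) through ubiquinone to complex III, then by cytochrome c to complex IV, which reduces oxygen to water. Complexes I, III and IV pump protons across the inner mitochondrial membrane, and complex V, the ATP synthase, lets them flow back through a rotating ring of c subunits to make ATP. Most subunits are encoded in the nucleus, and a small set of core subunits comes from the mitochondrial genome. Osteoclasts are large cells rich in mitochondria, and respiratory chain genes are known targets of nuclear respiratory factor 1 (NRF1), the ETS factor GABP, estrogen-related receptors (ERR) with their PGC-1 coactivators, and YY1.

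Several sets of libraries stood apart from the rest. The 5 libraries whose title has a double hyphen, all of day 0 or day 1, had 32342 to 42658 CPM (counts scaled to a common library total) of mitochondrially encoded messenger RNA, against 13939 to 21605 in the other 4 of day 0 and 16872 to 17920 in the other 3 of day 1. The summed members were at 5978 to 6515 CPM with a double hyphen, at 5775 to 6446 CPM in the other libraries of day 0 and at 6072 to 7539 CPM in the other libraries of day 1. Of the 14241 genes, 217 genes had all 3 KO libraries numbered 3 on one side of the other 15 libraries, against 15 for KO number 2 and 8 for KO number 1. These sets are not alike, since KO number 3 held only single-hyphen titles while KO numbers 1 and 2 each held both title styles. Osteoclast markers marked the day 3 libraries, with 9 of 10 called higher than on day 0 under either label, and 7 of 8 macrophage markers were called lower.

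Promoter sequences are shown for a gene of each complex and for a pair of ATP synthase genes that encode the same protein, so that the motifs of the known regulators can be seen beside the RNA levels. They run from 250 bases before to 50 after the annotated start (RefSeq, GRCm38.p6), on the strand of the gene, and letters in capitals mark a motif on either strand. The motifs searched were GCGCA, any base and then GCGC for NRF1, CCGGAA for ETS factors, AAGGTCA for ERR and ATGGCGG for YY1, none of which was required to be free of overlap with another. Ndufs7 lies at chr10:80249199-80249498 (plus strand), Sdhd at chr9:50603800-50604099 (minus), Uqcrc1 at chr9:108936398-108936697 (plus), Cox6a1 at chr5:115348909-115349208 (minus), Atp5g3 at chr2:73911277-73911576 (minus) and Atp5g1 at chr11:96075582-96075881 (minus).
Ndufs7: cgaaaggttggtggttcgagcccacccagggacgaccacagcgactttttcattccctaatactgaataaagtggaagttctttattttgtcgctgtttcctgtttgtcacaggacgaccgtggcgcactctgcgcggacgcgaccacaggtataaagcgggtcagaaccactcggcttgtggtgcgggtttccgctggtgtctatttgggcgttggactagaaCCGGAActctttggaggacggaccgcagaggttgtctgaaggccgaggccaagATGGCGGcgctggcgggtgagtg
Sdhd: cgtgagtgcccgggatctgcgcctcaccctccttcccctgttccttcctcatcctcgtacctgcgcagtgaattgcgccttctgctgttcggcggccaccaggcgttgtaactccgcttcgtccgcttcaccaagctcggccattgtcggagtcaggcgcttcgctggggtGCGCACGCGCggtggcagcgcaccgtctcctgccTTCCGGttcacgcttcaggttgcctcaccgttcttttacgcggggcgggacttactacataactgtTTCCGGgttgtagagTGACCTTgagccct
Uqcrc1: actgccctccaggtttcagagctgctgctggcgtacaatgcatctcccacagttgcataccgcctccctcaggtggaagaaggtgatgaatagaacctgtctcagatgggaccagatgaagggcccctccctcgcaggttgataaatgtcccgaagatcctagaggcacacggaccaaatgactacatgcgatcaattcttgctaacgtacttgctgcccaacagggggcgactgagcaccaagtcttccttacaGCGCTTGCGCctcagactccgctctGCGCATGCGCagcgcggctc
Cox6a1: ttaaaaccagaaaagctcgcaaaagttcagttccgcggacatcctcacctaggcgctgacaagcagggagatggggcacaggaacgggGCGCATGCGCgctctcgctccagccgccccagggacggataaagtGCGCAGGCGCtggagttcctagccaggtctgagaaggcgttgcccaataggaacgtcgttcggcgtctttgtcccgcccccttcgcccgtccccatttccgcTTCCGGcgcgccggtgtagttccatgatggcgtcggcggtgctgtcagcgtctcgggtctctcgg
Atp5g3: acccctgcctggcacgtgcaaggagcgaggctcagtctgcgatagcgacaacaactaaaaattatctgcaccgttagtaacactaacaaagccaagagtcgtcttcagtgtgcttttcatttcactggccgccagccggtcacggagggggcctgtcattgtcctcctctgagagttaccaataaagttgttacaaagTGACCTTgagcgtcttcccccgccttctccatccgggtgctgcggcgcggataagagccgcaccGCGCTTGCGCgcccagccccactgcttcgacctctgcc
Atp5g1: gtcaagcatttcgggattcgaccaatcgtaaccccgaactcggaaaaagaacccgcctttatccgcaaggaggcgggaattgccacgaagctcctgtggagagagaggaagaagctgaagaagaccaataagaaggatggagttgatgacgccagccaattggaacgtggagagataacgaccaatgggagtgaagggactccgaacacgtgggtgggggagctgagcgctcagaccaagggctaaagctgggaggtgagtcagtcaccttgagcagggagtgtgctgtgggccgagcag

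A promoter was found in RefSeq for 69 of the 85 members. The NRF1 letters stood in 19 of these 69 genes (27.5%), against 5.19% of all 27025 genes with a promoter and 10.9% of the tested genes that had one. A gene counted if any of its promoters held a match. ETS letters stood in 28 (40.6%, against 16.7% of all genes with a promoter and 30.4% of tested genes), ERR letters in 8 (11.6%, against 5.38% and 3.97%) and YY1 letters in 11 (15.9%, against 4.69% and 8.99%). In all, 47 of the 69 held at least 1 of the 4 motifs, a share that was not counted over all genes or tested genes. Uqcrc1 and Cox6a1 each held the NRF1 letters at 2 places, Sdhd held NRF1, ETS and ERR letters, Ndufs7 held ETS and YY1 letters, and Atp5g3 held an NRF1 and an ERR match. By complex, the NRF1 letters stood in 7 of 33 genes of complex I, 4 of 7 of complex II and 6 of 13 of complex V. In complexes III and IV they stood in 1 of 5 and 1 of 11 genes. The printed Uqcrc1 and Cox6a1 were these genes, so they are not typical of their complexes. No match to these letters was present in the 300-base window of Atp5g1, the member of this pair with the larger change on day 3. The letters did not separate members that rose under both labels on day 3 from the other members: for NRF1 the shares were 28.1% of 32 and 27.0% of 37, for ETS 37.5% and 43.2%, for ERR 9.38% and 13.5%, and for YY1 12.5% and 18.9%.

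By length-scaled level, complex IV genes were the most abundant members before RANKL. Cox8a, a small ubiquitous subunit of complex IV, had the highest level in the WT libraries of day 0, 314 ± 36.6 FPKM (a count scaled by gene length and library total; SD, n = 3), followed by Cox6b1 at 199 ± 20.2 FPKM and Cox5a at 148 ± 21.9 FPKM. The next levels were 141 ± 30.6 FPKM for Cox7a2l and 125 ± 10.5 FPKM for Cox6a1, and from Cox5a down these neighbours lay within their SDs. On day 3 Cox8a (612 ± 91.5 FPKM) and Cox6b1 (431 ± 50.8 FPKM) led again, and Atp5b, the catalytic beta subunit of ATP synthase, came to 278 ± 36.6 FPKM beside Cox5a at 279 ± 22.4 FPKM.

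The question of the time course was how these genes moved as macrophages turned into osteoclasts. After 3 days of RANKL, 65 of the 85 members were called higher and 1 lower in the libraries labelled WT, and 41 were called higher and 1 lower in those labelled KO (edgeR quasi-likelihood test, Benjamini-Hochberg adjusted p under 0.05). Among all genes tested, 50.2% were called in WT (23.7% higher, 26.5% lower) and 42.5% in KO (20.2% higher, 22.3% lower). The median log2 fold change of the members was 0.77 in WT and 0.40 in KO, against -0.03 and -0.01 over all genes. Leaving out 1 KO library at a time gave 26 to 42 members called higher in KO, with 26 in each fit without library 1 of day 0, library 1 of day 3 or library 2 of day 3. The members Ndufa4l2, Cox6a2, Cox7a1 and Ndufb4 had fewer than 180 counts outside day 3 and entered by the naming rule only through the day 3 libraries, and without these 4 there were 63 of 81 called higher in WT and 39 in KO. Without the 6 genes that are not subunits, 63 and 41 of 79 were called higher and none lower. In 74 members every WT library of day 3 lay above every WT library of day 0, and in 43 members this held for KO, where 31.5% and 29.4% of all genes did so. RANKL cultures of bone marrow hold changing mixtures of cells, and fewer cells of a type and less RNA per cell cannot be told apart in these libraries.

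The summed CPM of the 85 members was 6015, 6446 and 5959 in the WT libraries of day 0 and 11635, 10570 and 12525 on day 3. In KO it was 5775, 6515 and 6374 on day 0 and 9673, 10520 and 8044 on day 3. Thus every library of day 3 lay above every library of day 0, and the means rose 1.89-fold in WT and 1.51-fold in KO, from 6140 ± 267 to 11577 ± 979 and from 6221 ± 393 to 9412 ± 1258 CPM (SD, n = 3). Complex V had the largest ratio of day 3 to day 0, 2.33 in WT and 1.79 in KO, followed by complex III with 2.10 and 1.68. For complexes I, II and IV the ratios were 1.59, 1.72 and 1.59 in WT and 1.29, 1.43 and 1.32 in KO. The members took 0.487% to 0.763% of all counts on days 0 and 1 and 0.873% to 1.51% on day 3. Scaling by library totals alone, without the trimmed-mean factors, raised the median of all genes on day 3 by 0.36 in WT and 0.29 in KO on the log2 scale, and the members' medians then were 1.13 and 0.70.

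**Figure D1:**
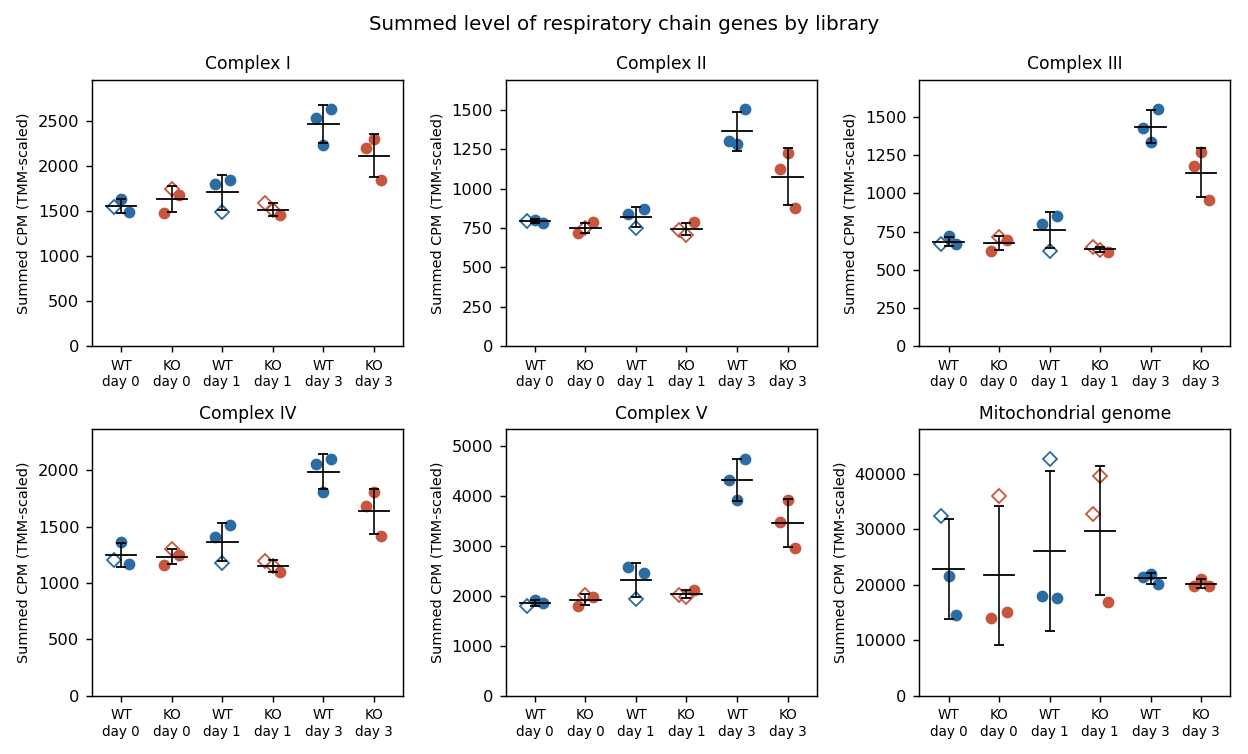
Summed CPM of the members of each complex and of the 13 genes of the mitochondrial genome in each library, by label and day (vertical axes, TMM-scaled CPM from 0; bars, mean ± SD of 3 libraries; open diamonds, libraries with a double hyphen in the title). All 5 nuclear sums are higher on day 3 than on day 0 under both labels, while the mitochondrial genome sum is highest in the 5 double-hyphen libraries.

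Complex I takes electrons from NADH and had the most genes of the complexes. Of 38 genes, 28 were called higher in WT and 16 in KO, Ndufa4 and Ndufa4l2 among them, with median log2 fold changes of 0.73 and 0.36. The 7 genes of the catalytic core were called in 7 of 7 in WT and 4 of 7 in KO, a subgroup formed after the values were seen, as were the other subgroups named below. Ndufs1, the large iron-sulfur subunit of the core, was at 68.1, 73.4 and 60.4 CPM in WT on day 0 and at 147, 150 and 167 CPM on day 3. In KO it was at 55.0, 70.9 and 65.8 CPM and then at 121, 130 and 89.1 CPM. The groups did not overlap, and the log2 fold changes were 1.20 (SE 0.14, adjusted p = 2.13e-05) and 0.83 (SE 0.14, adjusted p = 0.000452). Ndufv1, which binds NADH and the flavin, went from 31.8, 39.0 and 37.6 to 83.0, 72.0 and 84.7 CPM in WT and from 34.4, 34.2 and 37.1 to 70.9, 81.5 and 51.2 CPM in KO. Its groups were apart under both labels, with log2 fold changes of 1.14 (adjusted p = 0.000114) and 0.95 (adjusted p = 0.000705). The Ndufs1 locus overlaps Eef1b2 on the other strand, and whether counting used strand is not given in the sources used here, so its counts may hold reads of that gene.

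Ndufb6, an accessory subunit of the membrane arm, had the largest fold in WT among complex I genes expressed on day 0. It was at 12.1, 14.4 and 14.6 CPM in WT on day 0 and at 38.4, 33.8 and 41.7 CPM on day 3, and in KO at 15.7, 16.9 and 16.6 and then 31.5, 38.4 and 30.5 CPM. Day 3 was more than 1 log2 unit above day 0 under both labels, at 1.47 (SE 0.21, adjusted p = 9.76e-05) and 1.03 (SE 0.21, adjusted p = 0.00174). At the other end, Ndufc2, an accessory membrane-arm subunit, moved from 36.6, 32.3 and 32.0 to 44.1, 46.0 and 48.1 CPM in WT, a log2 fold change of 0.45 (adjusted p = 0.0489). Ndufa13, an accessory subunit also studied as the cell-death gene GRIM-19, moved from 53.2, 46.5 and 50.8 to 65.1, 59.7 and 59.6 CPM in WT, or 0.29 (adjusted p = 0.05 after rounding, just under the threshold). Both of these calls rested on the setting, since leaving out WT libraries 2 or 3 of day 0 or any WT library of day 3 ended them. In KO their groups overlapped, with values of 0.13 and 0.05. The complex I genes not called in WT were Ndufa1, Ndufa2, Ndufa3, Ndufa6, Ndufa7, Ndufb4, Ndufb7, Ndufb11, Ndufs5 and Ndufv3, at 0.05 to 0.94.

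Complex II, succinate dehydrogenase, is also an enzyme of the citric acid cycle and has no subunit from the mitochondrial genome. All 4 of its subunits were called higher in WT and 3 in KO. Sdha, the flavoprotein that oxidises succinate, was at 387, 384 and 359 CPM in WT on day 0 and at 605, 616 and 744 CPM on day 3, and in KO at 313, 340 and 319 and then 538, 605 and 391 CPM. The day 3 libraries were all above those of day 0, with log2 fold changes of 0.80 (SE 0.14, adjusted p = 0.000433) and 0.66 (SE 0.14, adjusted p = 0.00236). Sdhb, the iron-sulfur subunit, went from 101, 101 and 103 to 176, 159 and 187 CPM in WT (0.78, adjusted p = 0.00139). In KO it was at 97.1, 93.8 and 149 CPM on day 0 and 133, 154 and 125 CPM on day 3, and these libraries overlapped (0.28, adjusted p = 0.181). The high day 0 value was that of library 3, and without it the gene was called in KO as well. The membrane anchors Sdhc and Sdhd, which hold the heme and the ubiquinone site, were called under both labels. Sdhc went from 95.8, 102 and 102 to 186, 180 and 200 CPM in WT and from 89.2, 109 and 104 to 160, 160 and 115 CPM in KO, with log2 fold changes of 0.91 and 0.52. Sdhd went from 155, 156 and 156 to 262, 256 and 303 CPM in WT and from 157, 138 and 154 to 222, 240 and 182 CPM in KO, or 0.81 and 0.52. Neither gene had overlapping groups. The assembly factors were less uniform: Sdhaf1, which helps to insert the iron-sulfur clusters of Sdhb, was called in WT (9.81, 8.82 and 9.72 to 15.7, 15.2 and 15.2 CPM, 0.70, adjusted p = 0.00378) and not in KO (10.7, 13.5 and 10.3 to 16.7, 15.4 and 12.1 CPM, 0.36). Without KO library 2 of day 0 or library 3 of day 3, Sdhaf1 was called in KO too. Sdhaf4 was called in WT at 0.79, and Sdhaf2 and Sdhaf3 were called under neither label.

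Complex III hands electrons from ubiquinol to cytochrome c. Of its 8 genes, 7 were called higher in WT and 5 in KO, and the median log2 fold changes of 1.10 and 0.81 were the highest of the complexes. Uqcrc1, a core protein facing the matrix, was at 176, 186 and 189 CPM in WT on day 0 and at 389, 389 and 433 CPM on day 3, and in KO at 176, 172 and 194 and then 323, 368 and 270 CPM. The log2 fold changes were 1.13 (SE 0.15, adjusted p = 4.18e-05) and 0.83 (SE 0.15, adjusted p = 0.000612). Its partner Uqcrc2 went from 99.0, 106 and 98.0 to 221, 229 and 280 CPM in WT and from 94.6, 103 and 99.5 to 192, 226 and 161 CPM in KO (1.27, adjusted p = 1.28e-05, and 0.96, adjusted p = 0.000132). Uqcrfs1 is the Rieske iron-sulfur protein, the electron acceptor from ubiquinol. It went from 76.9, 88.0 and 64.8 to 175, 170 and 202 CPM in WT and from 72.8, 79.4 and 88.4 to 149, 156 and 114 CPM in KO, with log2 fold changes of 1.25 (adjusted p = 3.42e-05) and 0.80 (adjusted p = 0.00119). For these 3 core genes no day 3 library reached down to a day 0 library. Among the small subunits, Uqcr10 had the largest change, from 59.8, 69.0 and 65.1 to 187, 148 and 176 CPM in WT and from 61.3, 64.7 and 70.4 to 147, 140 and 106 CPM in KO (1.40 and 1.00). The smallest called changes in WT were those of Uqcrb and Uqcr11, small subunits as well. Uqcrb went from 59.4, 48.4 and 54.4 to 87.4, 85.3 and 105 CPM (0.77, adjusted p = 0.0021), and Uqcr11 from 40.2, 46.5 and 37.8 to 73.6, 72.9 and 71.9 CPM (0.81, adjusted p = 0.00497). In KO the groups overlapped for both, at 0.42 (adjusted p = 0.0627) and 0.52 (adjusted p = 0.0512), and without KO library 3 of day 3 both were called. Uqcrh, the hinge protein that docks cytochrome c, was not called (0.39 in WT, 0.21 in KO).

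Complex IV, cytochrome c oxidase, has nuclear subunits that surround a core from the mitochondrial genome, several of them with tissue-specific isoforms. Of its 14 genes, 10 were called higher in WT and 8 in KO. Among the genes called in WT whose day 0 and day 3 libraries did not overlap, Cox4i1 and Cox5a changed least. Cox4i1 was at 295, 327 and 216 CPM in WT on day 0 and at 409, 360 and 405 CPM on day 3, and in KO at 245, 301 and 288 and then 274, 376 and 299 CPM. It was called in WT (0.49, adjusted p = 0.017) and not in KO (0.19, adjusted p = 0.337), and the WT call was lost without WT library 3 of day 0 or library 1 of day 3. Cox5a went from 98.9, 118 and 117 to 171, 152 and 168 CPM in WT and from 110, 117 and 113 to 135, 144 and 117 CPM in KO, or 0.56 (adjusted p = 0.0105) and 0.22 (adjusted p = 0.289). Cox7b, a small subunit encoded on the X chromosome, had the largest change among the well-expressed genes. Its CPM were 58.4, 67.8 and 79.2 and then 166, 154 and 184 in WT and 62.4, 68.8 and 83.1 and then 144, 150 and 124 in KO, with log2 fold changes of 1.29 (SE 0.19, adjusted p = 0.000118) and 0.96 (SE 0.19, adjusted p = 0.00142). Cox8a went from 181, 207 and 175 to 300, 242 and 309 CPM in WT and from 162, 174 and 200 to 261, 223 and 202 CPM in KO (0.60 and 0.36), and its KO libraries came close, at 200 on day 0 and 202 on day 3. This KO call was lost in 10 of 18 alternative settings, among them each fit without KO library 1 or 2 of either day.

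Isoform pairs of complex IV showed which form the cells used. Cox7a1 is the heart and muscle form and Cox7a2 the ubiquitous one. Cox7a1 was low, at 1.24, 0.542 and 0.715 CPM in WT on day 0 and 3.20, 2.35 and 3.98 CPM on day 3, and in KO at 0.856, 0.692 and 1.75 and then 3.10, 4.53 and 1.36 CPM. It was called under both labels (1.93, adjusted p = 0.00577, and 1.44, adjusted p = 0.0291), but its KO libraries overlapped and the KO call was lost in 7 of 17 alternative settings, among them each fit without KO library 1 or 2 of either day. Of the 488 counts of Cox7a1, 323 were in the day 3 libraries. The count minimum of the naming rule thus favoured a rise, and its values are a description. Cox7a2 went from 29.7, 38.8 and 39.8 to 77.1, 70.6 and 90.0 CPM in WT and from 41.5, 37.7 and 38.9 to 69.3, 75.1 and 51.2 CPM in KO (1.13 and 0.73), and the KO call was lost without KO library 2 of day 0 or KO library 1 or 2 of day 3. Per length, Cox7a1 made up 4.78% ± 2.77 of the pair in WT on day 0 and 7.59% ± 1.01 on day 3 (SD, n = 3). Cox6a1, the ubiquitous form of its pair, went from 161, 158 and 171 to 317, 293 and 323 CPM in WT and from 150, 149 and 202 to 288, 314 and 249 CPM in KO (0.93 and 0.77). The muscle form Cox6a2 was at most 1.46 CPM in every library of days 0 and 3, with 0.412, 0.619 and 0.572 then 0.671, 0.765 and 1.46 CPM in WT and 0.927, 0.692 and 1.24 then 0.536, 0.306 and 0.793 CPM in KO. Its fitted change was 0.84 in WT and -0.79 in KO, neither was called, and the difference between them had an unadjusted p of 0.0201 and an adjusted p of 0.91. Cox6a2 overlaps Itgad on the other strand. Cox6b1 went from 104, 111 and 114 to 198, 164 and 194 CPM in WT and from 106, 123 and 119 to 163, 157 and 138 CPM in KO (0.75 and 0.40), and the KO call was lost without KO library 1 of day 0 or KO library 1 or 2 of day 3. Its testis form Cox6b2 was not called, at 1.15, 1.63 and 0.930 then 0.929, 1.29 and 1.01 CPM in WT and 1.71, 1.00 and 2.69 then 1.79, 1.71 and 1.19 CPM in KO. These pairs thus kept the ubiquitous form as the abundant one on both days.

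Complex V genes held the largest changes of the well-expressed members. Of 17 genes, 14 were called higher and 1 lower in WT, and 9 higher and 1 lower in KO. The catalytic head is built from alternating alpha (Atp5a1) and beta (Atp5b) subunits around the gamma shaft (Atp5c1). Atp5b was at 474, 474 and 540 CPM in WT on day 0 and at 1590, 1489 and 1831 CPM on day 3, and in KO at 520, 529 and 520 and then 1285, 1463 and 1091 CPM. The log2 fold changes were 1.72 (SE 0.16, adjusted p = 6.21e-06) and 1.29 (SE 0.16, adjusted p = 6.84e-05), and the lowest library of day 3 had more than 2 times the CPM of any library of day 0. Atp5a1 went from 504, 566 and 487 to 1058, 1004 and 1215 CPM in WT and from 444, 518 and 522 to 869, 987 and 744 CPM in KO, or 1.07 (adjusted p = 4.44e-05) and 0.81 (adjusted p = 0.00052). The other head genes changed less, with Atp5d at 0.99 in WT and 0.54 in KO, Atp5e at 0.64 and 0.41, and Atp5c1 at 0.59 and 0.49. All 5 were called in WT, and all but Atp5e in KO. Leaving Atp5a1 and Atp5b out of the sum of all members lowered the ratio of day 3 to day 0 from 1.89 to 1.73 in WT and from 1.51 to 1.40 in KO.

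The c ring is the rotor through which protons flow, and Atp5g1, Atp5g2 and Atp5g3 encode the same mature c subunit behind different import sequences. All 3 were called higher under both labels, with medians of 1.68 in WT and 1.12 in KO, the highest of the subgroups looked at. Atp5g1 was at 5.28, 5.81 and 9.15 CPM in WT on day 0 and at 52.5, 49.5 and 58.7 CPM on day 3, and in KO at 7.27, 6.69 and 7.28 and then 39.7, 43.9 and 29.2 CPM. The log2 fold changes of 2.99 (SE 0.37, adjusted p = 3.3e-05) and 2.41 (SE 0.36, adjusted p = 0.00022) were the largest of any member detected in all libraries of day 0. Atp5g3 went from 66.3, 77.5 and 79.5 to 245, 214 and 258 CPM in WT and from 84.4, 85.1 and 85.1 to 190, 214 and 150 CPM in KO, or 1.68 (adjusted p = 2.6e-05) and 1.12 (adjusted p = 0.000656). Atp5g2 was low throughout, at 0.742, 1.39 and 1.22 then 2.68, 3.06 and 3.93 CPM in WT and 1.21, 1.08 and 1.09 then 3.22, 2.08 and 1.59 CPM in KO (1.52 and 1.02), and its KO call was lost in 10 of 17 alternative settings, among them each fit without a KO library other than library 3 of day 3. Despite its larger fold, Atp5g1 stayed the minor source: per length it made up 2.56% of the c subunit messages in WT on day 0 and 6.18% on day 3, and 2.39% and 5.63% in KO, while Atp5g3 made up 95.5% and 92.1% in WT. Such near-identical genes share stretches of sequence, and reads may be split between them or their pseudogenes, so the low values of Atp5g2 are uncertain.

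**Figure D2:**
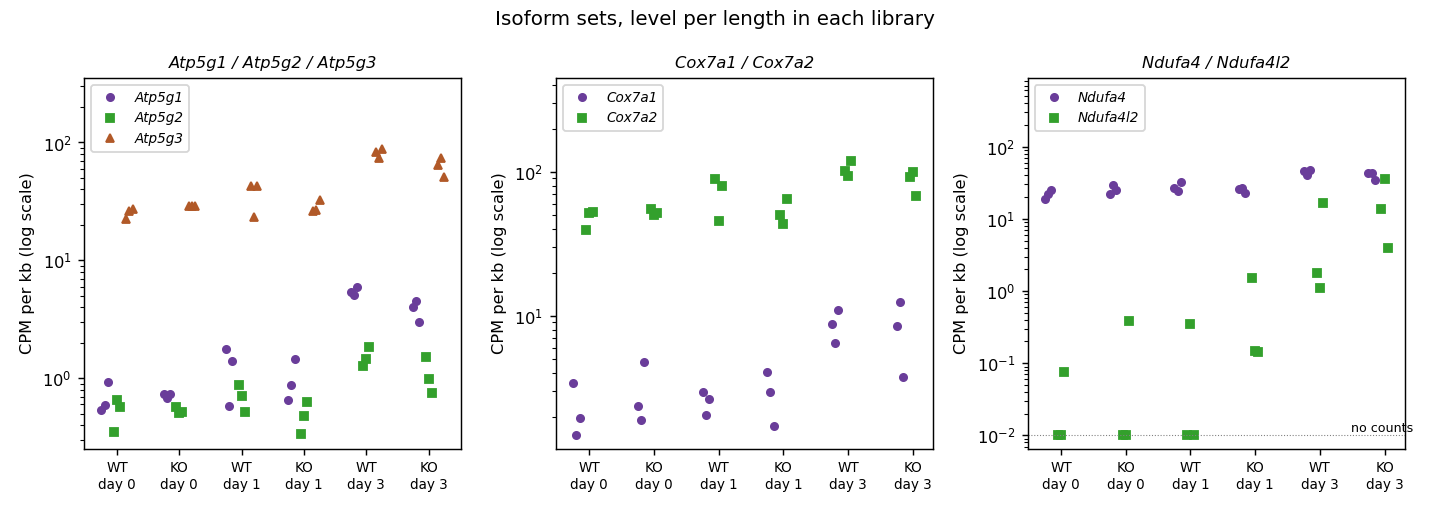
Level per length in each library of the c subunit genes Atp5g1, Atp5g2 and Atp5g3, of Cox7a1 and Cox7a2, and of Ndufa4 and Ndufa4l2, by label and day (vertical axes, CPM per kb, logarithmic; each point, 1 library; libraries without counts are drawn at the dotted line). Atp5g1 and Ndufa4l2 rise with day 3, and Atp5g3 and Cox7a2 stay the abundant forms of their sets in all libraries.

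The peripheral stalk holds the head still against the rotor. Its genes rose in WT, with Atp5o at 1.11, Atp5f1 at 0.73, Atp5j at 0.64 and Atp5h at 0.46, and of these only Atp5o was called in KO (0.81). Atp5h had the smallest called rise of the complex, from 39.1, 38.5 and 41.8 to 55.3, 51.6 and 57.5 CPM in WT, and in KO it was at 42.5, 51.1 and 43.2 and then 50.8, 51.8 and 42.4 CPM (0.08). The WT groups were apart and the KO groups overlapped. Atp5o and Atp5j overlap other genes, Atp5j that of Gabpa on the opposite strand. The single member called lower was Atp5sl, known as DMAC2, which takes part in building the membrane arm of complex I and is no subunit of ATP synthase. It went from 21.8, 38.0 and 23.3 to 18.9, 18.6 and 19.6 CPM in WT and from 23.2, 29.9 and 20.8 to 15.4, 17.5 and 13.4 CPM in KO, with log2 fold changes of -0.54 (adjusted p = 0.037) and -0.67 (adjusted p = 0.016). No library of day 3 reached the lowest of day 0, but the WT call was lost in 9 of 18 alternative settings, among them the fits without WT library 2 of day 0, its highest value, or any WT library of day 3. The KO call was lost in 5, among them the fits without KO library 2 of day 0 or library 3 of day 3.

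Ndufa4 is named for complex I but is now placed in complex IV, and Ndufa4l2 is its hypoxia-inducible relative. Ndufa4 was at 50.9, 58.6 and 66.3 CPM in WT on day 0 and at 125, 108 and 128 CPM on day 3, and in KO at 58.8, 79.5 and 67.6 and then 114, 116 and 92.0 CPM, called under both labels (1.04 and 0.64). Ndufa4l2 had no counts in 2 of the 3 WT libraries of day 0 and 0.0715 CPM in the other, and was at 1.70, 1.06 and 15.8 CPM on day 3, at least 26.7-fold higher by the group means when 3 counts per library are taken as the floor. That bound rested on library 3 of day 3, and without it the gene was at least 5.97-fold higher. In KO it was at 0, 0 and 0.364 CPM on day 0 and at 13.0, 34.0 and 3.80 CPM on day 3. Levels on day 3 thus varied more than 10-fold between WT libraries. Of its 1210 counts 1173 were in the day 3 libraries, so that the count minimum of the naming rule itself favoured a rise, and the values are a description. Its share of the pair per length was 10.6% ± 12.9 in WT and 26.5% ± 17.5 in KO on day 3. The locus overlaps Shmt2 on the other strand, which has far more counts.

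**Figure D3:**
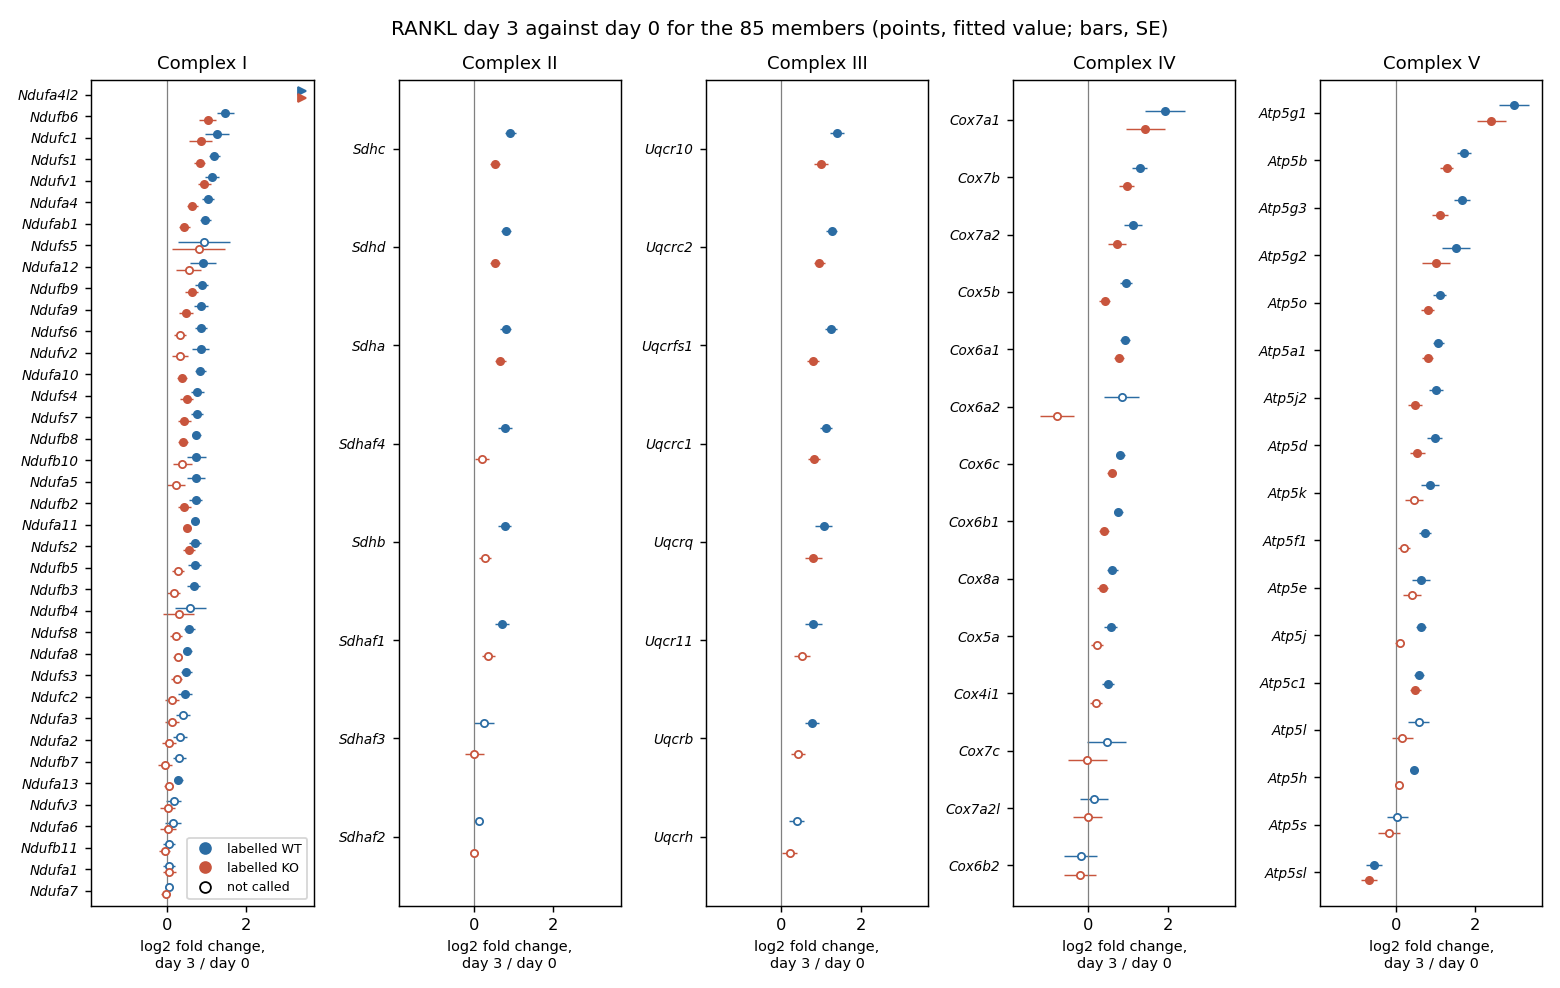
Log2 fold change of day 3 over day 0 for each of the 85 members, by complex (horizontal axes; points, fitted value, blue for libraries labelled WT and red for KO; bars, SE; open points, not called). The Ndufa4l2 values lie beyond the axis and are drawn as arrows at its edge, and in 84 of 85 members the WT point lies to the right of the KO point.

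Of the members called higher, 41 were shared, which is all 41 called in KO and 63.1% of the 65 called in WT, and 24 passed the threshold in WT alone. The fitted change was larger in WT than in KO for 84 of 85 members, where 48% of all genes had the larger change in WT. The test of the difference itself, the interaction of label and day, called none of the members, with a smallest adjusted p of 0.91, and 0% of all genes (edgeR). At an unadjusted p under 0.05 it held 11 members, all lower in KO, or 12.9% against 5.4% of all genes, and DESeq2 also called none. The lowest of these p-values was 0.0045 for Atp5j (-0.54). The median interaction was -0.33 over the members, -0.42 in complex V and -0.31 in complex III. Without the 3 KO libraries numbered 3 the median was -0.22, with 4 members under the unadjusted 0.05.

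Between the labels on day 3, none of the 85 members was called, against 0.14% of all genes, and the smallest adjusted p was 0.292 (edgeR; DESeq2 called none). The KO value was below the WT value in 81 of 85 members, where this held for 47.7% of all genes, with a median log2 difference of -0.28. At an unadjusted p under 0.05 there were 22 members, all lower in KO, or 25.9% against 10.7% of all genes. In 35 members every KO library lay below every WT library and in none above, against 13.3% and 15.9% of all genes. These counts leaned on KO library 3 of day 3: without it 3 members were under the unadjusted 0.05, and without WT library 3 there were 7. Ndufs1, Ndufab1 (the mitochondrial acyl carrier protein, also a complex I subunit) and Cox5b had among the lowest p-values. Ndufab1 was at 28.9, 23.2 and 23.3 CPM in WT and 18.8, 16.3 and 20.2 CPM in KO, a log2 difference of -0.45 (SE 0.14). Cox5b, a zinc-binding subunit on the matrix side of complex IV, was at 122, 96.4 and 123 CPM in WT and 86.5, 94.1 and 72.4 CPM in KO, or -0.43 (SE 0.15). Both pairs of groups were apart, with adjusted p = 0.292 and 0.336.

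Markers of several cell types differed between the same day 3 libraries. Summed osteoclast markers were at 16039, 17742 and 23380 CPM in WT and 12195, 17734 and 8293 CPM in KO. The 8 stromal or osteoblast markers summed to 11372 to 14696 CPM in WT and 20299 to 30061 CPM in KO, and the 9 neutrophil markers to 38.1 to 71.1 CPM and 102 to 1184 CPM, both without overlap. Macrophage markers summed to 6174 to 12793 CPM in WT and 8451 to 17117 CPM in KO. The B cell markers summed to 10.9 to 11.5 CPM in WT and 32.1 to 105 CPM in KO, again without overlap, and the T and NK cell markers to under 2 CPM in every library, also higher in KO without overlap. No gene of these lists was called between the labels on day 3, while 3 of 9 neutrophil and 2 of 6 B cell markers were called higher in KO in the average over days. That average takes libraries of different days as independent, and it called 1.59% of all genes. Before RANKL the neutrophil sum was already higher in KO without overlap (3751 to 12131 against 684 to 3116 CPM), and so was the osteoclast sum (670 to 988 against 224 to 649 CPM), with no marker called. Of the KO libraries, library 3 had the lowest member sum (8044 CPM), the lowest osteoclast sum and the highest macrophage, neutrophil and stromal sums, and library 2 had the highest member and osteoclast sums. From day 0 to day 3 the stromal sum also rose, from a mean of 1863 to 12682 CPM in WT and from 2941 to 26730 CPM in KO. The neutrophil sum fell from a mean of 2152 to 53.5 CPM in WT and from 7264 to 545 CPM in KO, with 9 of 9 markers called lower under both labels, and the B cell sum was at 369 and then 11.3 CPM in WT and 484 and then 59.7 CPM in KO, with 5 and 3 of 6 markers called lower. None of the macrophage, osteoclast, stromal or neutrophil markers was at or under 3 counts in every library. The part of cell mixture in the day and label values was not tested.

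At the earlier times no member was called between the labels either. Before RANKL 0.119% of all genes were called, the median of the members was 0.07, and 2 members had an unadjusted p under 0.05, against 7.59% of all genes. On day 1 0.112% of all genes were called, and the members had a median of -0.20. The KO value was lower in 74 of 85 members, against 53.2% of all genes, and 14 members were under the unadjusted 0.05, against 7.9% of all genes. Leaving out the WT library of day 1 with a double hyphen gave a median of -0.30, 33 members under the unadjusted 0.05 and 4 calls, Uqcrq, Cox5a, Cox6c and Cox7b, where 0.899% of all genes were called. Whether the label difference changed between day 1 and day 3 was not tested. Averaged over the 3 days, no member was called (1.59% of all genes were), and 17 (20%) had an unadjusted p under 0.05, all lower in KO, against 18.4% of all genes. The nearest was Uqcrq, a small complex III subunit also named ubiquinone-binding protein, at -0.48 (SE 0.12, adjusted p = 0.0571), which passed the threshold in 6 of 28 alternative settings. DESeq2 called 3 members in this average, Uqcrq, Sdha and Cox7c, and 6.91% of all genes. The average takes libraries of different days as independent, and the labels do not say whether they are.

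**Figure D4:**
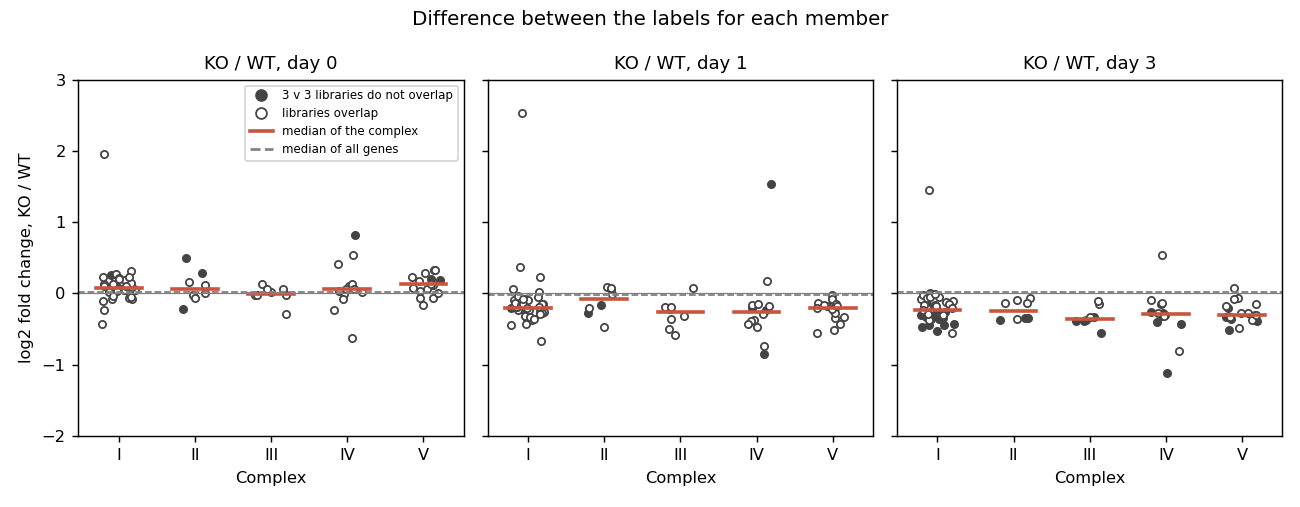
Log2 difference of KO over WT for each member by complex at day 0, day 1 and day 3 (vertical axes; filled points, the 3 KO and 3 WT libraries do not overlap; red lines, median of the complex; dashed lines, median of all genes tested). On day 3 the points lie below 0 in 81 of 85 members, and no point is called at any day.

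After 1 day of RANKL few members passed the test. In WT 1 member was called, against 2.35% of all genes: Ndufa11, an accessory subunit of complex I, at 0.44 (SE 0.10, adjusted p = 0.0428). The median of the members was 0.23, with 20 (23.5%) under the unadjusted 0.05, all higher, against 20.5% of all genes. In KO none was called (0.0211% of all genes were), the median was -0.06, and 3 were under the unadjusted 0.05, against 10.2% of all genes. The WT value rested on a library: without the double-hyphen WT library of day 1 there were 18 calls among the members and 12.4% of all genes were called, and without either of the other WT libraries of day 1 there were 0 calls among the members and among all genes. Summed members of day 1 were at 7423 and 7539 CPM in the single-hyphen WT libraries and at 5978 CPM in the double-hyphen one, and in KO at 6188, 5978 and 6072 CPM.

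A set of 3 members set the KO libraries numbered 3 apart from all others at every day, and they were noticed after their values were seen. Ndufs5, an accessory complex I subunit, was at 3.71, 3.41 and 5.15 CPM in KO library 3 of day 0, day 1 and day 3, and at 16.4 to 36.7 CPM in the other 15 libraries. Cox7a2l, studied as a factor that links complexes III and IV into supercomplexes, was at 74.9, 72.8 and 83.9 CPM against 123 to 217 CPM. Cox7c, a small complex IV subunit, was at 1.02, 1.32 and 1.19 CPM against 1.99 to 6.76 CPM. No member was above the other 15 libraries in this way, and none was apart for KO number 1 or number 2. Among all tested genes, 0.583% lay below and 0.941% above in KO number 3. Neither Ndufs5 nor Cox7a2l was called in any comparison, and the large spread of their KO groups bears on their tests. Cox7c has low counts and related pseudogenes, so its level is uncertain.

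The 13 protein genes of the mitochondrial genome, which supply the core of complexes I, III, IV and V, gave no call in the fit over all libraries. None passed the test on day 3 under either label (medians -0.05 in WT and -0.04 in KO, smallest adjusted p 0.109 and 0.325). With title style as a covariate 7 of 13 in WT and 9 of 13 in KO were called higher (medians 0.57 and 0.65), and with the 13 single-hyphen libraries alone 6 and 9 (0.48 and 0.74). The result for these genes therefore depended on the double-hyphen libraries, all from day 0 or day 1. The library kit selects messenger RNA, and its yield of mitochondrial messages was not tested.

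Partners of the chain in the same mitochondria rose with it. Cyc1, the cytochrome subunit of complex III that the naming rule missed, went from 63.1, 64.7 and 67.4 to 270, 259 and 310 CPM in WT and from 72.6, 67.8 and 72.4 to 223, 255 and 160 CPM in KO, or 2.10 (adjusted p = 9.18e-06) and 1.59 (adjusted p = 9.59e-05). Cycs, cytochrome c itself, was called under both labels too (1.96 and 1.22). Of the 10 carriers and other subunits, 8 were called higher in WT and 9 in KO, among them the ADP/ATP carrier Slc25a4 (1.56 and 1.44). Of 17 genes of the citric acid cycle, which feeds NADH and succinate into the chain, 15 were called higher under each label, with medians of 1.16 and 0.84. The share of all genes called higher was 23.7% in WT and 20.2% in KO. Idh3a, a subunit of the NAD-dependent isocitrate dehydrogenase, had the largest change (2.80 and 2.06), and Mdh2, malate dehydrogenase, the next (2.15 and 1.49). The medians of the carriers list were 1.08 and 0.78, so both lists lay above the medians of the members.

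Factors that assemble the complexes moved both ways. Of 43 tested that are not members, 21 were called higher and 5 lower in WT, and 13 and 4 in KO. Among all genes tested, 23.7% were called higher and 26.5% lower in WT, and 20.2% and 22.3% in KO. Ecsit, a complex I assembly factor, rose by 1.61 in WT and 0.99 in KO, and Cox10, which makes the heme of complex IV, by 1.46 and 0.86. Surf1, a complex IV assembly factor, was lower on day 3, from 39.2, 55.0 and 33.2 to 23.9, 18.2 and 22.2 CPM in WT and from 37.2, 42.5 and 39.1 to 20.5, 21.9 and 20.6 CPM in KO (-0.99 and -0.92). Pet117, a complex IV assembly factor, had the most negative fitted value of the list in WT (-6.08, adjusted p = 0.0475), but it had 155 counts in WT library 1 of day 0, 105 in KO library 2 of day 0, 117 in KO library 3 of day 1 and 1 count in each of the other 15 libraries. Lyrm7, which guides the Rieske protein Uqcrfs1 into complex III, was the single gene of the assembly, carrier, citric acid cycle and regulator lists called between the labels. The share of all genes called was 1.59% in the average over days and 0.112% on day 1. Lyrm7 was at 2.06 to 9.14 CPM over the 9 WT libraries and 0.705 to 3.12 CPM over the 9 KO libraries. Its log2 difference averaged over the days was -2.04 (adjusted p = 5.16e-05), with libraries of different days taken as independent. By day it was -1.66 before RANKL, -2.77 on day 1 and -1.68 on day 3, and the adjusted p was 0.156, 0.00256 and 0.0805 in turn. Lyrm7 rose on day 3 under both labels all the same (1.15 and 1.12).

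Among 17 regulators of mitochondrial genes, 8 were called higher in WT, and 5 higher and 1 lower (Mterf4) in KO. The shares of all genes were 23.7% higher in WT, and 20.2% higher and 22.3% lower in KO. Ppargc1b, the coactivator PGC-1 beta, went from 2.89, 4.18 and 1.93 to 41.5, 34.0 and 51.3 CPM in WT and from 2.57, 1.54 and 2.18 to 26.4, 34.6 and 19.6 CPM in KO, with log2 fold changes of 3.82 (adjusted p = 4.21e-06) and 3.67 (adjusted p = 1.2e-05). The groups were far apart under both labels. Esrra, its partner ERR alpha, was called in WT (0.59, adjusted p = 0.00347) and not in KO (0.22, adjusted p = 0.219), and Myc was called in both (2.49 and 1.34). Nrf1 (-0.12 and -0.26), Gabpa (0.11 and 0.01) and Tfam, the factor that packages and transcribes mitochondrial DNA (0.04 and 0.13), were not called under either label. Ppargc1a had too few counts to be tested.

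**Figure D5:**
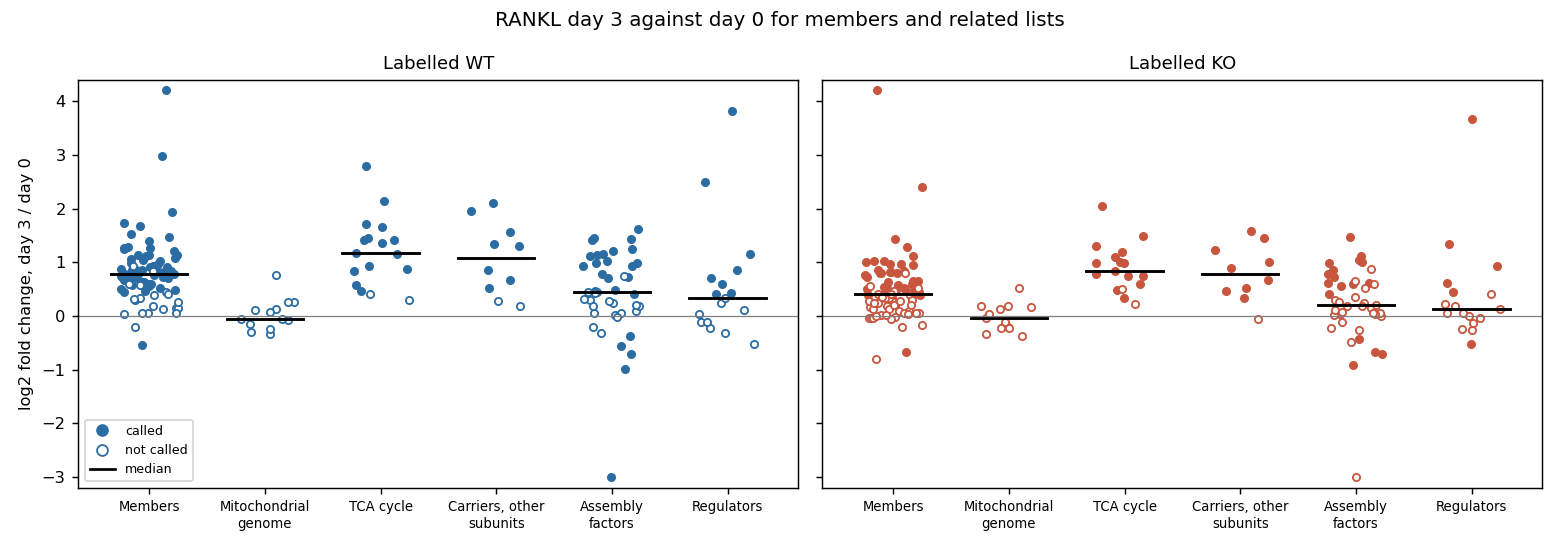
Log2 fold change of day 3 over day 0 for the members and the related gene lists, by label (vertical axes, values beyond the axis drawn at its edge; filled points, called; black lines, median). The citric acid cycle and carrier lists sit above the members, assembly factors spread to both sides, and the 13 genes of the mitochondrial genome lie around 0 with no called point.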

How the data were processed

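The authors deposited 1 table with whole-number read counts and FPKM values for 34745 genes in 18 libraries. Libraries were made from total RNA with a SMARTer messenger RNA kit. The submitters' processing notes name StringTie and the builds GRCm38.p4 and mm10, and the aligner and the counter are not given in the sources used here. The deposited FPKM equalled the deposited count scaled by the total of its column and by 1 length per gene, to a relative deviation of 5.09e-06. It served for levels between genes, for the gene lengths behind the isoform shares and for an alternative scale of the summed members. The comparisons used the deposited counts.

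The analysis ran in R 4.3.3 under edgeR 4.0.16 (limma 3.58.1), after tests on simulated data. The filterByExpr step left 14241 genes, scaling used TMM factors (trimmed mean of M values), and 1 quasi-likelihood model over all 18 libraries held the 6 label-by-day groups. P-values are 2-sided and Benjamini-Hochberg adjusted over the 14241 genes in each of 9 comparisons, and calls were made at an adjusted p under 0.05. CPM are counts scaled to a common total after TMM adjustment, log2 fold changes are those of the model, and SE came from its F statistic. A gene with 3 or fewer counts in every library of a group was taken as at the floor, a limit that covers counting error only. Precision rests on 13789775 to 17559958 counts per library.

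The members and gene lists were chosen with earlier results of these data known. Values per library are given for core subunits, for the 2 largest and 2 smallest called changes of each complex in WT, for isoform sets and for members called between the labels, and other members were named as needed. Alternatives were DESeq2 1.42.0 size factors, library totals, no low-count filter, at least 5 CPM in 3 libraries, the DESeq2 Wald test, only the groups compared, title number as a block over all libraries or within each label, title style as a covariate, the WT libraries of day 1 numbered 1 summed, and each library left out. Only the 13 libraries with a single hyphen, and all libraries but the 3 KO libraries numbered 3, were fits added after the data were seen. Deviations of same-numbered libraries of day 0 and day 3 had correlations across genes of 0.116, 0.133 and 0.381 in KO. In WT they were 0.133, -0.0349 and 0.0421, so among the pairs of day 0 and day 3 only KO number 3 stood above the rest. Pairs of day 0 and day 1 reached higher values, at 0.0295, 0.546 and 0.612 in KO. In WT, library 1 of day 0 had 0.621 with the double-hyphen library of day 1 and -0.481 with the single-hyphen library numbered 1. The WT libraries numbered 2 had 0.113. For comparison, the WT and KO libraries numbered 3 of day 0 had a correlation of 0.343. Promoters came from a RefSeq table (GRCm38.p6).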

Additional observations from a re-analysis of the deposited data

How the results depend on the processing

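The day 3 calls kept their direction in every setting tried. Of the 66 WT calls, 58 were called under all 18 alternatives, and of the 42 KO calls, 25, with no change of sign. The number called ran from 59 to 64 in WT and from 27 to 42 in KO when 1 library was left out, with 27 in KO without KO library 1 of day 0, library 1 of day 3 or library 2 of day 3. It was 77 in WT and 59 in KO with library totals, and 68 and 42 without the KO libraries numbered 3. The replicate block gave 39 KO calls over all libraries and 37 within each label. The summed members rose 2.43-fold in WT and 1.86-fold in KO by library totals, and 2.16-fold in WT and 1.69-fold in KO by the deposited FPKM. For WT on day 1, 0 members were called with library totals, no filter, only the groups compared, either replicate block or the KO libraries numbered 3 left out, 2 with the WT libraries numbered 1 summed, 3 with title style, 4 by the DESeq2 Wald test and 7 with single-hyphen libraries only. Leaving out 1 library gave 0 to 18 there, 0 to 4 between the labels on day 1 and 0 to 5 for the average over days. That average gave 3 calls by the DESeq2 Wald test and 1 each with title style, the summed WT libraries or single-hyphen libraries only. The interaction, KO day 1, and the labels on day 0 and day 3 gave 0 calls under every alternative. Genes of the mitochondrial genome were called in 1 (library totals), 7 (title style) and 6 (single-hyphen only) cases in WT, and in 9 with title style and 9 with single-hyphen libraries only in KO. The cause was not tested. Depth limits the members under about 3 CPM, such as Cox6a2, Cox6b2, Cox7a1, Ndufb4 and Atp5g2, whose fold changes have wide errors.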
